A study of Mus musculus with 8 samples.

Results

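CTCF occupancy was examined around 7 genes that encode CTCF itself and DNA-binding or adaptor proteins that work with it, out of 21883 protein-coding genes in the RefSeq table used. The genes are Ctcf, Ctcfl, Zfp143, Yy1, Maz, Adnp and Ldb1. They were chosen by name, not by a measured value, although earlier results of these data were known. A region belonged to a gene when its summit lay within the gene span widened by 20 kb on both sides. The windows held 26 of the 33815 control regions and 29 of the 36186 NMDA regions on assembled chromosomes. The series mapped CTCF by chromatin immunoprecipitation and sequencing in primary cortical neurons from wild-type Swiss-Webster mouse embryos at embryonic day 16, kept in culture until day 13. Control cultures were untreated, and the others received 50 µM NMDA, which opens one class of glutamate-gated ion channels, for 10 minutes and then recovered for 50 minutes without the drug. Etoposide, which traps topoisomerase II on DNA, also appears in the shared culture protocol, but no sample is labelled as having received it. Each condition had 2 ChIP samples and 2 input samples, and the 2 ChIP samples of a condition were joined by the authors into 1 list of reproducible regions. There is thus 1 list per condition, and no difference between the lists can be set against the spread between cultures. The lists hold no expression values, so the cell type could not be checked against its markers, and whether embryos were pooled is not given in the sources used here.

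CTCF binds DNA through a row of zinc fingers, halts loop extrusion by cohesin and so marks loop anchors and domain boundaries. Ctcfl (also called BORIS) is its paralog with a similar set of zinc fingers, known mainly from the testis. ZNF143 (mouse Zfp143), YY1 and MAZ are zinc finger proteins that bind promoters and have been linked to chromatin looping. ADNP is a homeodomain and zinc finger protein of the ChAHP chromatin complex, which can compete with CTCF for sites, and LDB1 is an adaptor without DNA-binding activity of its own that joins distant elements through LIM proteins. A CTCF region at the start of its own gene is where the factor could act on its own transcription, although occupancy alone does not show such an effect.

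The sequences below are some of those at gene starts under CTCF regions, and others, such as that of Slc25a29, are not shown. They come from RefSeq for GRCm38.p6, which holds a start for 6 of the 7 genes and none for Ctcfl. Shown are the bases before the start that lie outside the gene span, 5′ to 3′ on the strand of the gene, with GGGAGGG or its reverse complement, a G-rich element bound by MAZ, in capitals. The Pard6a sequence is included because an NMDA-only region in the Ctcf window has its summit there.
Ctcf, chr8:105636288-105636473, plus strand: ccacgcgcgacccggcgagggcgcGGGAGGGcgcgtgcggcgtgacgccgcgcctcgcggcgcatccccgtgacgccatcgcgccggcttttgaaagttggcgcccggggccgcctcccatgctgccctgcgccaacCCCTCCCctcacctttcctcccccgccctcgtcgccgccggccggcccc
Adnp, chr2:168207113-168207362, minus strand: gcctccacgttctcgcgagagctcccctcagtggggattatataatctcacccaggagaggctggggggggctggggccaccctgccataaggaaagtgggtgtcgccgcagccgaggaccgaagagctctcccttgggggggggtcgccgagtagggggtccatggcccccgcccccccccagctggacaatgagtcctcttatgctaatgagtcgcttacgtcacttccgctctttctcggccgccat
Zfp143, chr7:110061452-110061688, plus strand: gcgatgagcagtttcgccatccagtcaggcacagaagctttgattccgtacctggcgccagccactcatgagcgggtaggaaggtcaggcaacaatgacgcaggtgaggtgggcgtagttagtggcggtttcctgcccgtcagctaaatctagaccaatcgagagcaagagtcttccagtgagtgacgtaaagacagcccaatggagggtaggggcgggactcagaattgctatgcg
Pard6a, chr8:105700898-105701147, plus strand: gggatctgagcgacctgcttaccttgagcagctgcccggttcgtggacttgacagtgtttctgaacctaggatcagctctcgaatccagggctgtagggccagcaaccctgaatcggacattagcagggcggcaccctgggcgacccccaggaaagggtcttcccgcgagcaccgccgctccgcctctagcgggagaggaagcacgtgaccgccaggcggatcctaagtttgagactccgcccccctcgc

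Motifs of the encoded factors were searched on both strands in the 10 RefSeq promoter windows of the 6 genes (250 bases before to 50 after each start). The 12-letter CTCF core consensus matched in none of them, with no mismatch or with 1. It matched 0.558% and, with 1 mismatch, 4.33% of all 32817 promoter windows, and 5.89% and 24.8% of the 2427 windows that held a region summit. No summit lay inside a promoter window of the 6 genes, so these windows are beside the summits and not under them. The YY1 motif AANATGGC, present in 6.04% of all windows, matched at Ctcf and at Adnp. At both it read on the opposite strand, beginning 10 bases after the start of Ctcf and 5 bases before that of Adnp, with the same 8 letters. These are shown in capitals in the 30 bases around them, with the 2 matches at Yy1 to AGGGGGC, the G-rich part of the CTCF consensus, which 10.6% of all windows hold.
Ctcf, YY1 motif, chr8:105636537-105636566, plus strand: accgcgccgccGCCATTTTgtgtccgagcc
Adnp, YY1 motif, chr2:168207099-168207128, minus strand: ctttctcggccGCCATTTTggctagggcag
Yy1, first G-rich match, chr12:108793055-108793084, plus strand: gcgcaggaggcAGGGGGCagcgtaacgccg
Yy1, second G-rich match, on the opposite strand, chr12:108793254-108793283, plus strand: ccccgccgcccGCCCCCTctccccccgccc
GGGAGGG, held by 21.95% of windows, matched in both windows of Maz, in the one of Ctcf and in 2 of the 3 of Ldb1; 2 pairs of these matches in Maz overlap. AGGGGGC also matched in 1 window of Maz and 1 of Ldb1, where it overlaps a GGGAGGG match. The ZNF143 motif ACTACAA matched in none of these windows and in 3.24% of all windows. The windows with matches to the 2 G-rich motifs were rich in G and C, against a median of 52.7% over all windows. These letters made up 87.3% and 74.3% of the Maz windows, 75.3% at Ctcf and 81% at Yy1. In the Ldb1 windows with a match they made up 67.3% and 71.3%. The shares over all windows are not matched for this content, and its part in the matches was not tested. Matches are descriptions of the letters and show no binding.

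All 7 genes had CTCF regions that were found in both lists. A region counted as shared when 1 bp or more of it lay under a region of the opposite condition, and this held for 25 of the 26 control regions and 26 of the 29 NMDA regions. The single control-only region compares with 9.22% control-only over the whole control list, and the 3 NMDA-only regions with 15.5% over the whole NMDA list. Regions of 1 list alone lay in the windows of Ctcf, Zfp143 and Maz, 3 of 7 genes, where 36.7% of protein-coding genes had one. A shared region lay within 20 kb of 71.9% of protein-coding genes. The windows held from 4.07 to 7.59 control regions per 100 kb, against a median of 2.22 over protein-coding genes, and from 4.46 to 7.59 NMDA regions against 2.35. Each of the 7 was thus above the median density in both lists. Among genes with windows of similar length, 49.5% had at least as many control regions as Maz and 38.2% as Zfp143. This share was 35.7% for Adnp, 35.5% for Yy1, 18.6% for Ldb1, 10.5% for Ctcfl and 6.01% for Ctcf. In the NMDA list it ran from 6.63% for Ctcf to 39.8% for Yy1. The list-only counts depend on the threshold, an irreproducible discovery rate (IDR). With an IDR of at most 0.01 in both lists, 18 control and 27 NMDA regions were left in the windows. Of these, 0 of 18 were control-only, against 5.61% of the control list at that threshold, and 8 of 27 were NMDA-only, against 18% of the NMDA list. The windows had thus lost 8 of 26 control and 2 of 29 NMDA regions. The 2 were the NMDA-only regions in the windows of Ctcf and Maz, with scores of 708 and 683. Of the 8 NMDA-only regions at that threshold, only the one in Zfp143, with a score of 862, was NMDA-only before. The others were shared before, and their control partners fell below the threshold. Over the whole lists, 26136 of 33815 control and 29936 of 36186 NMDA regions were left at that threshold. When a shared region had to overlap by 50% of both partners, 2 were control-only and 5 NMDA-only, against 14.8% and 20.4% of the lists. When summits had to lie within 100 bp, 6 were control-only and 9 NMDA-only, against 15.9% and 21.4%. These shares and medians describe the lists and were not tested.

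**Figure D1:**
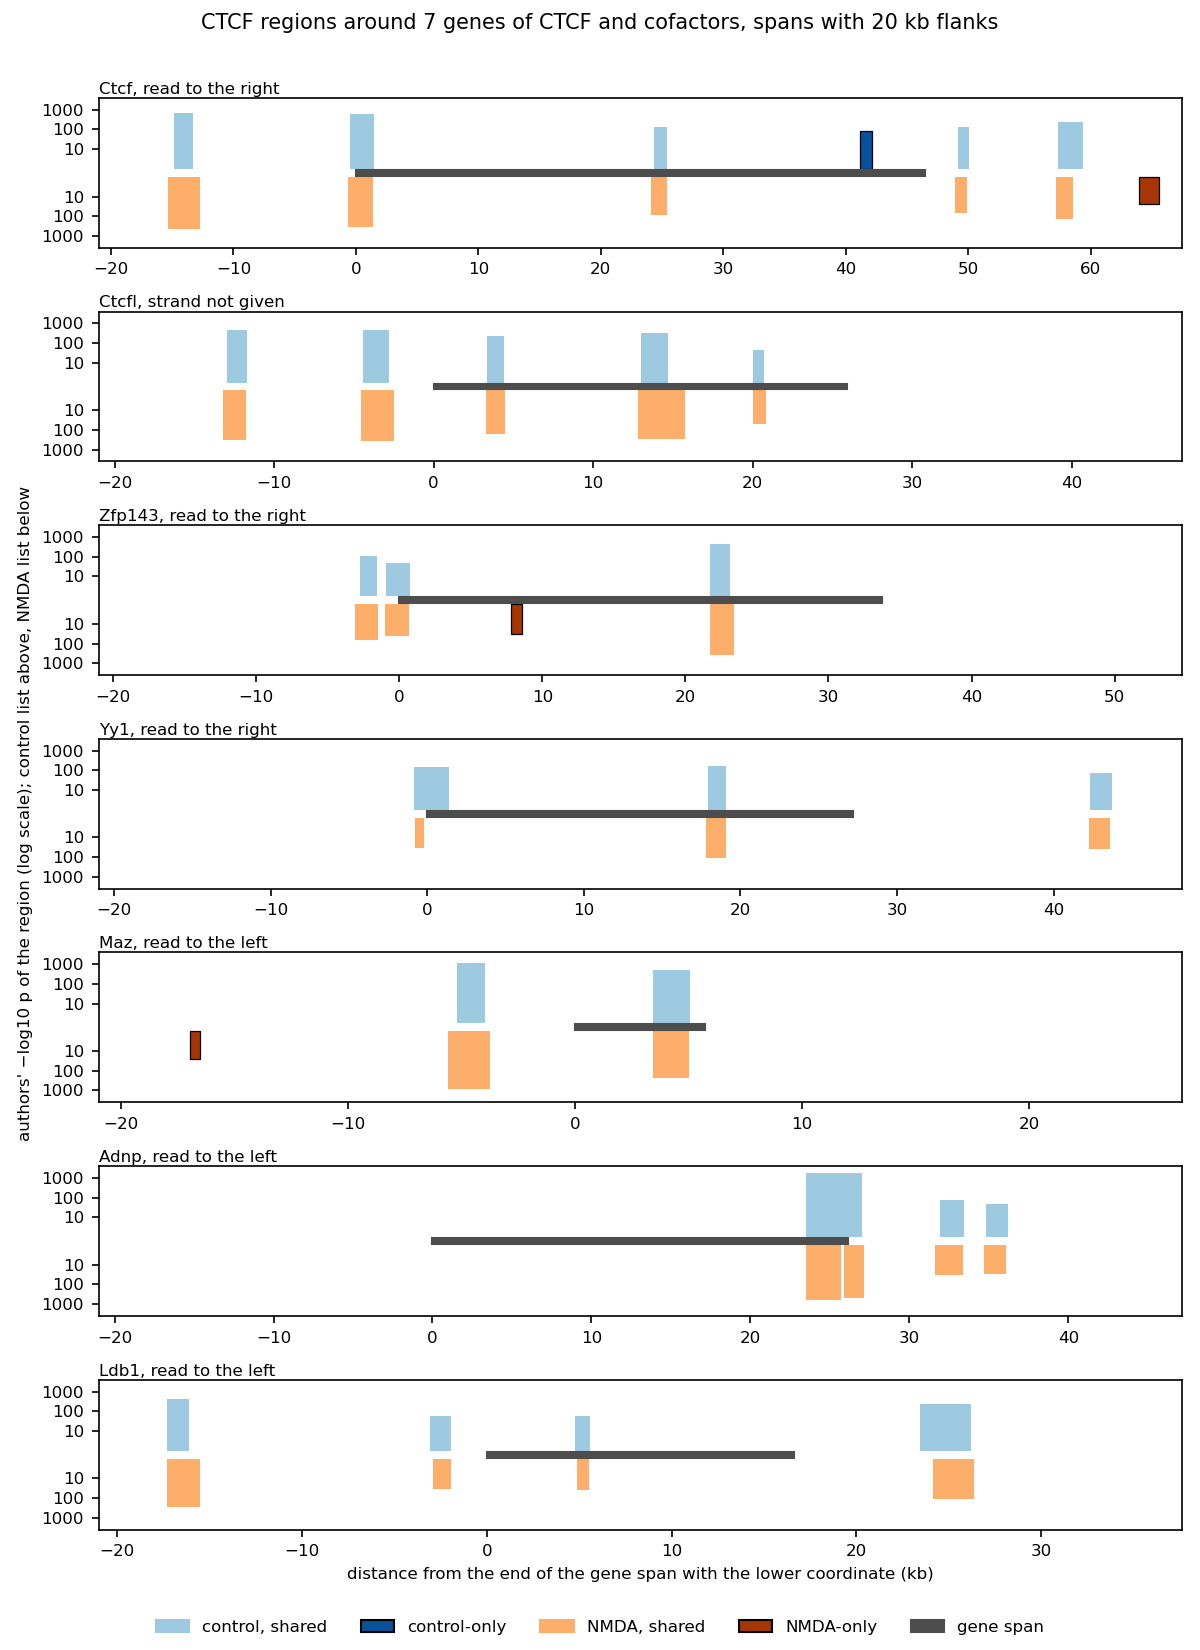
CTCF regions around the 7 genes, with the distance in kb from the end of the gene span that has the lower coordinate on the x axis and the authors' −log10 p of each region, on a log scale, as bar height. Control regions stand above the gene span and NMDA regions below it, bar width is region width, and the 4 outlined bars are the regions of 1 list alone: 1 control-only and 1 NMDA-only at Ctcf, and 1 NMDA-only each at Zfp143 and Maz.

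Signals below are the authors' −log10 p of a region, which for the NMDA list is the sum of 1 column per replicate. Such values depend on read depth, which the files do not give, so each is read by its rank within its own list, where rank 1 is the strongest. The median was 166 over the control list and 90.9 over the NMDA list. A lower −log10 p in NMDA than in control is thus no sign of a weaker place. The median member region stood at 44.1% of the control list and 45.0% of the NMDA list. The strongest decile held 5 of the 26 control and 7 of the 29 NMDA regions. Regions ran from 711 to 3556 bp in the control list, with a median of 1399 bp against 1123 bp for the list. NMDA regions ran from 443 to 2974 bp, with a median of 1484 bp against 1182 bp.

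Ctcf (chromosome 8, 105636474 to 105682922, mm10) carried a strong region over its own start in both lists. In the control list this region (105636008 to 105637938) had a −log10 p of 645 and rank 1980. Its NMDA counterpart (105635854 to 105637836) had 353 and rank 3195, and the 2 replicate columns gave 131 and 223. The summits lay 245 and 270 bp after the start, inside the gene and the overlapping noncoding gene Gm5914, and both regions covered all of the promoter window. Among protein-coding genes with a summit within 1 kb of a start, 15.1% had one at least as strong in either list. The second strong region (105621622 to 105623160 in the control list) lay 13981 bp before the start, beside the end of Ripor1. It had 679 and rank 1786 in the control list, and 458 and rank 1672 in the NMDA list, with replicate values of 195 and 263. These 2 regions upstream and at the start were the strongest of the window in both lists.

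The body and downstream side of Ctcf held weaker regions and both kinds of list-only region. An intronic or exonic position could not be assigned, since exons were not used here. A shared region inside the span (105660787 to 105661897), which also falls in the pseudogene Gm5915, had 136 in the control list and 89.8 in the NMDA list. By rank it stood at 57.0% of the control list and 50.4% of the NMDA list. The control-only region (105677639 to 105678573) had its summit 41590 bp after the start of Ctcf, with a −log10 p of 79.0, rank 25597 and a score of 655, where listed scores run from 540 to 1000. It was stronger than the median of all control-only regions, which was 50.4. Beyond the 3′ end, shared regions lay near the end of Carmil2 (126 in the control list, 68.5 in the NMDA list) and within Carmil2 (246 and 132), an actin regulator gene. By rank the former stood at 59.8% in control and 58.6% in NMDA, and the latter at 34.4% and 38.0%. The NMDA-only region (105700403 to 105702022) lay 18073 bp past the end of Ctcf, with its summit 153 bp before a start of Pard6a, a cell polarity gene, and within Acd, which encodes a telomere protein. Its −log10 p was 23.9, with 11.05 and 12.8 in the replicate columns, rank 33895 and score 708, against a median of 28.5 for all NMDA-only regions. Neither list-only region of this window was therefore at the start of Ctcf. Ctcf had 6 regions in each list, and 6.32% of protein-coding genes had at least as many in the control list and 7.68% in the NMDA list.

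Ctcfl (chromosome 2, 173093609 to 173119525) had 5 regions in each list and all were shared. Its span lies within the longer gene model Gm40011. Of these regions 3 lay inside Ctcfl and 2 on its low-coordinate side, and none had a summit within 1 kb of an end of the gene. The strongest (173089199 to 173090804) had 482 and rank 3702 in the control list, and 360 and rank 3084 in the NMDA list, with 125 and 235 in the replicate columns. The next (173080651 to 173081889) had 477 in the control list and 317 in the NMDA list, where the replicate values were 156 and 161. By rank it stood at 11.2% of the control list and 11.1% of the NMDA list. Inside the gene, the region at 173106606 to 173108327 had 342 (rank 7335) in the control list and 299.7 (rank 4531) in the NMDA list. A weaker one (173096929 to 173098027) had 234 and 157, at 36.3% of the control list and 32.3% of the NMDA list. The weakest (173113629 to 173114339) had 44.3 in the control list, near its end at rank 31861, and 48.8 (25.1 and 23.8) at rank 25135 in the NMDA list. CTCF was thus listed across the gene of its paralog in both conditions, at 7.59 regions per 100 kb, the highest density of the 7 genes.

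Adnp (chromosome 2, 168180965 to 168207112) had the strongest control region of all 7 genes, and the NMDA list divided it. The control region (168204451 to 168208006) was 3556 bp wide, the widest in these windows, and covered the start of Adnp. It had a −log10 p of 1721 and rank 72, and 0.778% of protein-coding genes with a control summit within 1 kb of a start had one at least as strong. Among NMDA regions 2 took its place, separated by 184 bp. One (168204482 to 168206636) had its summit 1648 bp after the start, inside the gene, with 601 and rank 758, and 295 and 307 in the replicate columns. The other (168206821 to 168208104) had its summit 292 bp before the start, with 487 and rank 1410, and 243 and 244. Both NMDA replicates had separate regions on either side of the gap. A control region that overlapped 2 or more NMDA regions was rare, at 1.17% of the list, and made up 23.8% of the 151 control regions at least as wide. The reverse was no rarer. Of 36186 NMDA regions, 520 overlapped 2 or more control regions, beside 396 of 33815 control regions that overlapped 2 or more NMDA regions.

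The control summit at Adnp lay 679 bp after the start, 1 bp from the midpoint of the 2 NMDA summits, which were 1940 bp apart. Over the NMDA list the summit column was within 1 bp of the mean of the 2 replicate summits in 83.6% of 36186 regions, so a listed summit can lie between the replicates' own. The control list does not give the replicates' summits, and whether they differed at Adnp was not tested. Farther upstream, 2 weak shared regions lay inside Dpm1, which encodes a mannosyltransferase subunit for glycosylation. They had 73.5 and 49.8 in the control list, and 32.9 (10.9 and 22.0) and 28.3 (13.4 and 14.9) in the NMDA list. Their summits differed between the lists by 429 and 380 bp, which 1.33% and 1.72% of all paired regions reached. At the first of them the NMDA replicates themselves had summits 571 bp apart, more than the distance between the lists. By rank the 2 stood at 78.2% and 90.8% of the control list and at 82.6% and 87.9% of the NMDA list, all towards the weak end.

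Yy1 (chromosome 12, 108792945 to 108820148) had 3 regions in each list, all shared, and the one at its start had a different extent in the 2 lists. In the control list it ran from 108792098 to 108794294, 2197 bp, and covered the whole promoter window of Yy1 with both G-rich matches shown above. The NMDA region ran from 108792130 to 108792723, 594 bp, and ended 574 bp before the start. The low-coordinate ends were 32 bp apart and the summits 28 bp apart, so the lists differ on the side towards the gene. Both NMDA replicates had the short form, 594 and 545 bp wide, with ends 3 bp apart at 108792723 and 108792720. A listed NMDA region ran from the smaller start to the larger end of its replicates in 100% of regions. The control list does not give the replicates' extents, so whether both control replicates had the long form is not known. No other NMDA region lay over the start. The ratio of NMDA to control width was 0.270, and 0.0273% of 29350 paired regions had a ratio as low, against a median ratio of 1.08.

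The signal of this Yy1 region was also placed differently. It had 154 and rank 17872 in the control list and 33.1 and rank 29839 in the NMDA list, with 11.4 and 21.7 in the replicate columns. Among the paired regions, ranked as a common set, it stood at 57.7% in control and 91.4% in NMDA, a gap of 33.7 points that 0.474% of all pairs reached. The replicate columns of the NMDA list put it at 93.7% and 86.0%, so both were far from the control position. This pair was picked as the largest gap of 24 around these genes, and with 1 list per condition it has no test. Of the other Yy1 regions, the one inside the gene (108810873 to 108812009) had 158 in the control list and 111 in the NMDA list (35.4 and 75.8). The third (108835265 to 108836685) had its summit in the promoter window of Slc25a29, a mitochondrial carrier gene, in both lists, with 77.0 in control and 36.8 in NMDA (19.8 and 17.05). By rank these 2 regions stood at 51.8% and 76.6% of the control list and at 43.6% and 79.0% of the NMDA list. Their ratios of NMDA to control width were 1.11 and 0.906, near the median.

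Zfp143 (chromosome 7, 110061689 to 110095396) had its strongest region deep inside the gene and weak ones at the start. The inner region (110083423 to 110084839), with its summit 22255 bp after the start, had 444 and rank 4377 in the control list. By NMDA values it had 367 and rank 2953, with 123 and 244 in the replicate columns. The region over the start (110060791 to 110062426) had 46.4 and rank 31391 in control and 40.2 and rank 27380 in NMDA (14.7 and 25.6). It covered the whole sequence shown above in both lists, with summits 643 and 531 bp before the start. A further shared region lay 2407 bp before the start, with 113 in control and 63.0 in NMDA (19.7 and 43.3). By rank it stood at 63.6% of the control list and 61.3% of the NMDA list. The NMDA-only region (110069489 to 110070295) lay 8222 bp after the start, with 31.3 in all, 11.6 and 19.7 in the replicate columns, rank 30528 and score 862. Its replicate summits were 209 bp apart.

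Maz (chromosome 7, 127021450 to 127027188) is the shortest of the 7 genes and had a strong region inside it and a stronger one outside. The latter (127016250 to 127017471 in the control list) had 1229 and rank 377 in control. In NMDA it had 839 and rank 195, with 408 and 431 in the replicate columns, the strongest NMDA region in any of the 7 windows. Its summit lay 303 bp after the start of Pagr1a, which encodes a partner of histone methyltransferase complexes, and within 1 kb of an end of the synaptic gene Prrt2. The region inside Maz (127024877 to 127026495) had 512 and rank 3234 in the control list. The NMDA region there (127024897 to 127026462) had 236 and rank 6940, with 124 and 112 in the replicate columns. Its summit lay 1109 bp after the nearer start in the control list, and the regions reached the edge of that promoter window, covering 66 of its bases in control and 33 in NMDA. The NMDA-only region (127004482 to 127004924) lay inside Mvp, the major vault protein gene, and was the narrowest of all at 443 bp, with 24.8 (9.02 and 15.8), rank 33402 and score 683.

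Ldb1 (chromosome 19, 46031525 to 46048145) had 4 regions in each list and all were shared. The strongest (46014248 to 46015412) lay 16762 bp outside the gene, with 426 in the control list and 277 in the NMDA list (98.9 and 178). The region near Pprc1, a transcriptional coactivator gene (46054949 to 46057749), had 235 in control and 107 in NMDA (37.5 and 69.0), with its summit 326 bp before the start of that gene. It covered the whole Pprc1 promoter window in both lists. A weak region inside Ldb1 (46036296 to 46037092) lay 420 bp after the innermost of the 3 RefSeq starts, with 54.4 in control and 38.0 in NMDA (14.3 and 23.8). The fourth lay 2382 bp past the gene, with 55.3 in control and 34.2 (18.9 and 15.3) in NMDA. By rank the strongest stood at 14.2% of the control list and 14.6% of the NMDA list. The one near Pprc1 stood at 36.1% and 45.0%, the inner one at 88.0% and 77.8%, and the fourth at 87.5% and 81.4%. The 2 outermost starts of Ldb1 had no region over their promoter windows.

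At the gene starts together, 5 of the 6 genes with a RefSeq start had a summit within 1 kb of one in the control list and 5 of 6 in the NMDA list, where 27.2% and 27.5% of 17491 protein-coding genes did. Maz was the gene without one. The strength of these regions ranged widely. Adnp and Ctcf were in the strong part in both lists, and Zfp143 and Ldb1 were in the weaker part in both. Yy1 was in the middle in control and the weakest of the 5 in NMDA. Of the genes with such a summit, 49.0% in control and 75.4% in NMDA had one at least as strong as Yy1. For Ldb1 these shares were 83.6% and 69.2%. For Zfp143 they were 90.2% and 66.7%, and for Adnp, taken by the NMDA region within 1 kb, 0.778% and 9.47%. The Adnp values are not alike, since the control one is for the undivided region and the NMDA one for the weaker of 2 in its place. The stronger NMDA region, with 601, was left out because its summit lay 1648 bp after the start.

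**Figure D2:**
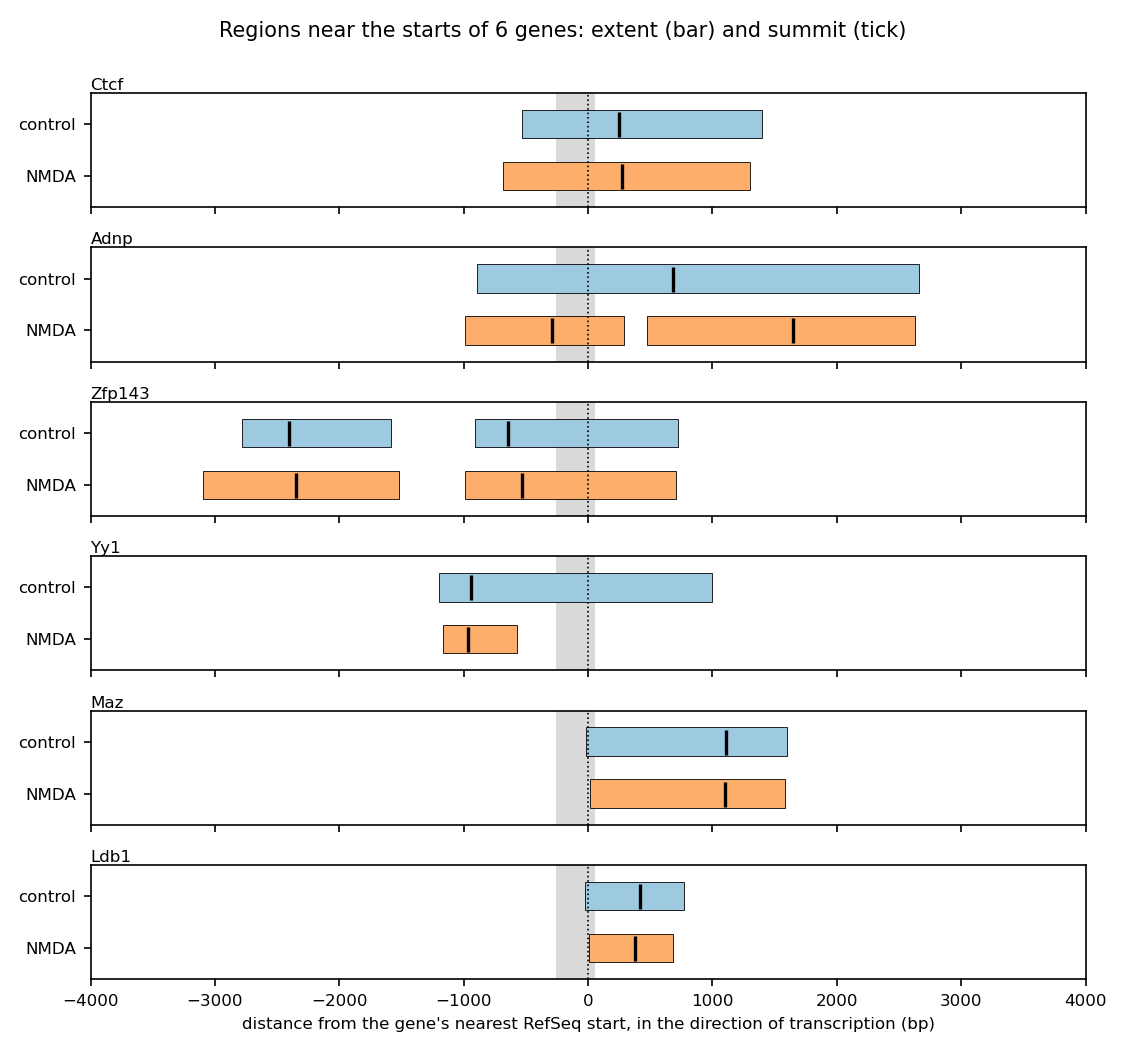
Regions near the nearest RefSeq start of 6 genes, with the distance in bp from the start in the direction of transcription on the x axis. Bars give the extent of each region in the control and NMDA lists, ticks the summit and grey the promoter window, and the NMDA list shows 2 bars in place of 1 at Adnp and a bar of 594 bp that ends 574 bp before the start at Yy1.

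Most regions of these genes kept a similar place in both lists. Of the regions, 24 paired one to one between the lists, and 12 ranked weaker and 12 stronger in NMDA than in control among all 29350 pairs. Of all pairs, 48.2% ranked weaker in NMDA. The median gap in rank between the lists was 4.21 points for the 24 and 6.30 points for all pairs. The median gap between the 2 replicate columns of the NMDA list was 7.93 points for the 24 and 9.74 for all pairs. The list gap ranks the NMDA sum over both replicates and the replicate gap ranks single columns, so these are unlike measures. The gap between the lists was the larger one at 7 of the 24 pairs, and at 37.0% of all pairs. These 7 were the first region of Yy1, the last of Ldb1, the inner region of Ctcf and the one beside Pagr1a, the weakest region of Ctcfl, the start region of Zfp143 and the inner region of Ldb1. At the last region of Ldb1, near Pprc1, the gap was 13.6 points against 1.26 between the replicate columns. The region inside Maz moved from 10.3% to 22.2%, but its replicate columns were farther apart, at 14.6% and 33.0%. At Ctcf the start region stood at 6.24% in control and 9.98% in NMDA, with the replicate columns at 13.4% and 8.00%. Summits of pairs lay within 100 bp of each other at 20 of the 24, where 94.3% of all pairs did, and the other 4 were the pairs at Dpm1, the start region of Zfp143 and the region at Slc25a29.

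**Figure D3:**
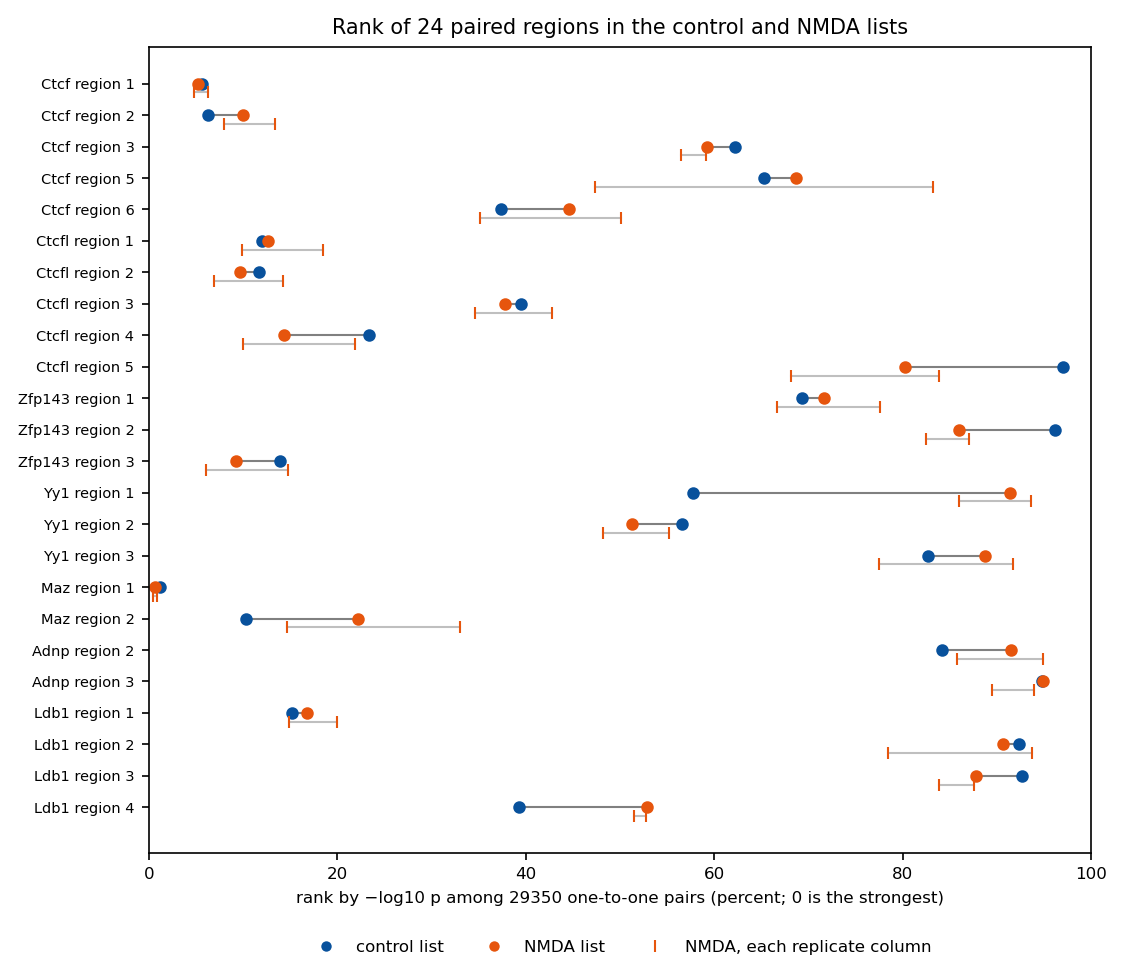
Rank of the 24 paired regions among 29350 pairs, as a percent on the x axis where 0 is the strongest, with 1 row per region numbered along the chromosome within each window of the control list. Dots give the control and NMDA lists and ticks the 2 NMDA replicate columns, and the widest gap between dots is at the first Yy1 region, from 57.7% to 91.4%.

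In signal, the replicate columns of the NMDA list gave a similar picture around these genes as over the whole list. The second column was the higher one at 24 of the 29 regions, and at 79.4% of all NMDA regions. Its share of the sum had a median of 62.5% at the 29 regions and 59.4% over the list, and ran from 36.2% to 69.0%. The lowest share was at the shared region by the end of Carmil2, with 43.7 in the first column and 24.8 in the second. The 3 NMDA-only regions had shares from 53.7% to 63.6%, within the range of the shared ones. Replicate summits lay farther apart here, within 100 bp of each other at 18 of the 29 regions, against 78.7% of the list. Their median distance was 44 bp at the 29 regions and 32 bp over the list.

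**Figure D4:**
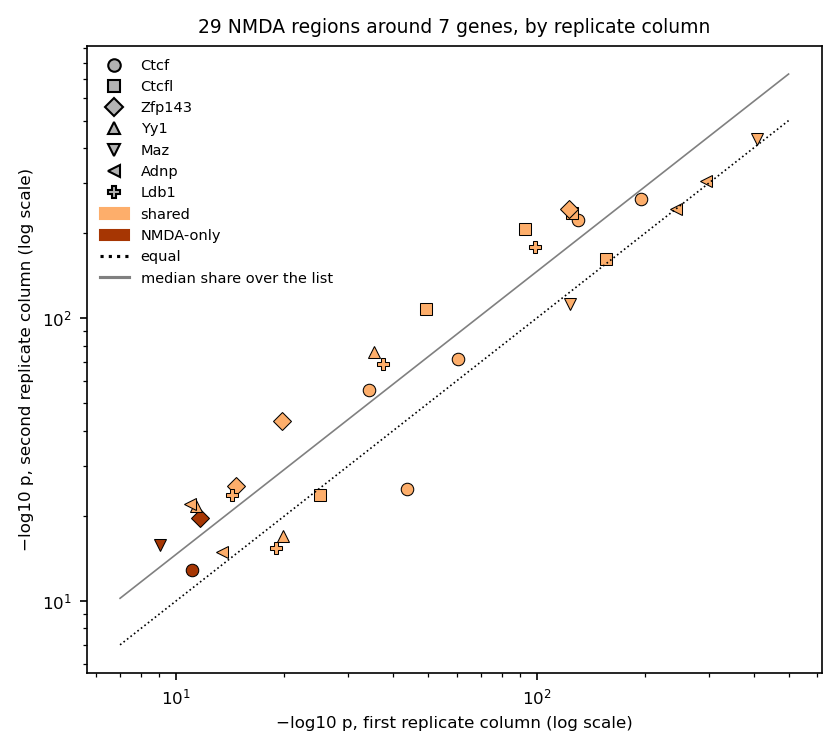
The authors' −log10 p of the 29 NMDA regions by replicate column, the first on the x axis and the second on the y axis, both on log scales, with 1 marker shape per gene. Most points lie above the dotted line of equal values, and the 3 dark points, the NMDA-only regions, sit at the weak end, with values from 9.02 to 19.7.

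Other genes had the same counts of shared, control-only and NMDA-only regions in their windows. For Ctcf there were 65 such protein-coding genes, and those closest in span length were Bcl7c, Slc38a10 and Klhl8. For Adnp there were 50, led by Fam83g, Adamts15 and Nol9, and for Yy1 there were 1586, led by Arl5b, Dna2 and Il22ra1. Ctcfl shared its counts with 377 genes, Zfp143 with 575, Maz with 792 and Ldb1 with 823. The closest were Tnfrsf9, Septin3 and Plxnb1 for Ctcfl, Pdcd2, Barhl2 and Coprs for Maz, and Haus1, Best1 and Mesd for Ldb1. Likeness rests on counts in 2 lists and is coarse.

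Cohesin is the ring complex that CTCF halts on chromatin, and a list of 14 genes for its subunits and regulators was counted in the same way. A shared region lay within 20 kb of 11 of the 14, where 71.9% of protein-coding genes had one. An NMDA-only region lay within 20 kb of 5 and a control-only region of none, where 26.7% and 16.3% of protein-coding genes had one. Smc3, a ring subunit gene, had 4 control and 5 NMDA regions, all shared. Nipbl, which encodes the loader, had 3 control and 5 NMDA regions, of which 2 were NMDA-only. Wapl, the gene of the release factor, had a single NMDA-only region, and Rad21, another ring subunit gene, had none in either list. Together the 14 windows held 24 control and 32 NMDA regions, of which 7 were NMDA-only, against 15.5% of the NMDA list. Differences between the 2 groups of genes were not tested.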

How the data were processed

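CTCF ChIP-seq regions were taken from 2 lists, 1 for the 2 control and 1 for the 2 NMDA ChIP samples, and the input samples were not used here. The submitters' processing notes name MACS2, BWA, SAMtools, Trimmomatic and FastQC and the builds mm10 and GRCm38.p6, without tool versions or settings. By their names, the lists come from IDR (irreproducible discovery rate) filtering of 2 replicates. The deposited −log10 p per region was used as signal. For NMDA, 36186 of 36186 values matched 2 replicate columns added together, within 0.001, and which column is which replicate is not stated. The deposited score runs from 540, an IDR of 0.05, to 1000. The deposited summit offsets were added to the region start. Depth is unknown, so intervals on signal are not given.

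Regions off the assembled chromosomes (5 control, 7 NMDA) were left out. Python 3.11.15 with pandas 2.3.3 was used for ranks, overlaps and motif searches, and the steps were tested on simulated data. One-to-one pairs are regions that overlap exactly 1 region of the other list, which overlaps them alone. The rule for named genes took the 7 members, genes holding or within 1 kb of a member summit, 3 genes of like counts for each member and at most 4 cohesin genes. The genes of like counts for Zfp143 are not reported here. Only the region counts and ranks listed in the closing section were recomputed under other settings. The genes, lists and comparisons were chosen with earlier results of these data known. Protein sequences, which the design named, were not used here.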

Additional observations from a re-analysis of the deposited data

How the results depend on the processing

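Shared regions lay at 7 of 7 genes under 6 of the 7 other settings tried and at 6 with summits within 100 bp. Counts of list-only regions are small and moved with most settings. An IDR of at most 0.01 in both lists left 29936 of 36186 NMDA and 26136 of 33815 control regions in the whole lists. In the windows, 8 of 27 NMDA regions were then NMDA-only (18% of the list) and 0 of 18 control regions control-only (5.61%). There were 29 and 26 regions before, and the control-only region in Ctcf was lost. The NMDA-only regions in the windows of Ctcf and Maz were lost too. Of the 8, only the one in Zfp143 was NMDA-only before, and the others had lost a control partner. With a reciprocal overlap of 50% these counts were 5 and 2, at 5 genes (20.4% and 14.8% of the lists), and with summits within 100 bp they were 9 and 6, at 5 genes (21.4% and 15.9%). A flank of 10 kb left 1 NMDA-only region. A flank of 50 kb gave 46 control and 49 NMDA regions, of which 5 and 7 were found in that list alone, at 5 genes. The median rank was 52.9% in the control list and 47.7% in the NMDA list with 10 kb, and 50% and 50.4% with 50 kb. It was 48% and 52.1% among one-to-one pairs, and 43.9% in NMDA by the second replicate column. The median share of the second replicate column was 62.9% with 10 kb and 58.2% with 50 kb. Ranking by column 7 was not run, since that column holds the same value, -1, in every region. No paired analysis was possible because each condition has 1 list joined over its replicates, and regions could not be called anew without a replicate. The NMDA list could be ranked by each replicate column alone, which gave 44.9% by the first beside the 43.9% by the second, and the control list has no such columns. With the NMDA list cut to its 33815 strongest regions, the length of the control list, 2 NMDA-only regions and 1 control-only region were left, at 3 genes. The NMDA-only region near Pard6a, at rank 33895, was the one left out. Read depth is unknown, and its part in the list-only calls was not tested.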
